A study of Canis lupus familiaris with 33 samples.

Results

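The genes described here encode the proteasome: its subunits, the factors that assemble it and the proteins that cap or restrain it. They were taken by name, as every probeset whose only gene symbol begins with PSMA, PSMB, PSMC, PSMD, PSME, PSMF or PSMG and a number, without the immunoproteasome genes PSMB8 and PSMB9. This gave 86 probesets of 42 genes among 43035 probesets and 15115 named genes on the array. PSMC3IP, a recombination factor, and PSME3IP1, a protein that binds PSME3, match by name alone, which left 81 probesets of 40 genes of the proteasome itself, and all counts below refer to these 40. A further 8 probesets name a member beside another gene and were left out, so that PSMD4 and PSMD5 were not read on their own, and no probeset is named here for PSMB7, PSMC1, PSMD1 or PSMG4.

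RNA came from lymph nodes of dogs with diffuse large B cell lymphoma (DLBCL), an aggressive cancer of mature B cells, or with healthy nodes, and was measured on 33 Affymetrix arrays. The DLBCL nodes were biopsied from patients. Naive DLBCL was sampled in 16 dogs before any chemotherapy, at 2.7 to 13.3 years of age (median 7.7). Relapsed DLBCL was sampled in 7 dogs of 6.4 to 11.8 years (median 8.7), 13 to 672 days after their last treatment, and the labels name the combination CHOP in 4 of their 7 protocols. The healthy nodes came from 7 dogs put down for conditions other than lymphoma, whose ages the labels do not give. One dog gave 4 of the healthy arrays (healthy dog 1) and another gave both a naive sample (sample 11) and a relapsed one (sample 12). Arrays of the same dog were averaged, so that 22 DLBCL dogs stand against 7 healthy dogs, and where naive and relapsed samples were told apart that dog stands in both groups. Whole tissue was used, so tumour, T cells, stroma and other cells were measured together, and fewer cells of a type cannot be told apart from less RNA per cell.

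The proteasome is the main protease of the cytosol and nucleus and degrades proteins tagged with ubiquitin. Its barrel, the 20S core, stacks outer rings of alpha subunits, which gate the entry, around inner rings of beta subunits, of which PSMB5, PSMB6 and PSMB7 carry the cutting sites. The 19S cap has a base, whose ring of PSMC ATPases unfolds the substrate, and a lid, in which PSMD14 removes the ubiquitin chain. In lymphoid tissue the proteasome also makes peptides for MHC class I and degrades the inhibitor of NF-κB, and inhibitors of its PSMB5 site are used against B-cell tumours.

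Some facts of the whole series bear on every result. RNA integrity number (RIN, where 10 is intact) was 5.8 to 9.15 in healthy dogs (median 7.1), 8.9 to 10 in naive dogs (median 9.8) and 9.1 to 9.9 in relapsed dogs (median 9.6), so that healthy RNA was more degraded. Of the T-cell list 8 of 10 genes were lower in DLBCL, with a median log2 difference of −1.95, and a mean level of 10.38 to 11.37 in healthy, 7.75 to 10.11 in naive and 8.54 to 9.76 in relapsed samples. All 7 measured proliferation genes were higher (median 1.29), with mean levels of 8.60 to 10.13, 10.27 to 11.23 and 9.51 to 11.21. Of the B-cell list, 2 of 6 genes, CD79A and BLK, were higher and 0 lower. MS4A1 (CD20), a defining B-cell marker, had a median of 12.11 in healthy, 13.03 in naive and 13.19 in relapsed nodes. Its difference between DLBCL and healthy nodes did not pass (limma, adjusted p = 0.15). Sample 5 had the lowest mean of B-cell markers, 7.97, against 10.13 in the next lowest tumour. Sample 18 had the highest mean of stroma genes, 12.66, and the lowest of proliferation genes, 9.51. The plasma cell list had 1 gene higher and 3 lower of 4, the macrophage list 0 and 3 of 6, the stroma list 1 and 0 of 6, the endothelium list 0 and 2 of 4 and the interferon list 1 and 2 of 6. What part RIN, T cells or proliferation have in the results below was not tested beyond the values given.

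Proteasome genes were higher in DLBCL as a broad, modest shift. Of the 40 genes, 23 were higher in DLBCL than in healthy nodes and 0 lower (limma, adjusted p under 0.05 over all probesets), whereas of all 15115 genes 19.9% were higher and 14.9% lower. The log2 difference was positive in 37 of the 40, with a median of 0.29, against 0.06 over all genes. Changes were small, from −0.16 for PSMD2 to 0.82 for PSME3, and 0 of the 40 reached a fold change of 2. Among the subcomplexes the alpha ring had the most genes higher (7 of 8) and the base the fewest (1 of 6), with 4 of 8 in the beta ring, 5 of 8 in the lid, 3 of 5 assembly factors and 3 of 5 activators and regulators. The differences between subcomplexes were not tested. At an unadjusted p under 0.05, 26 genes were higher and 1 lower, where 44.9% of all genes passed in either direction.

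**Figure D1:**
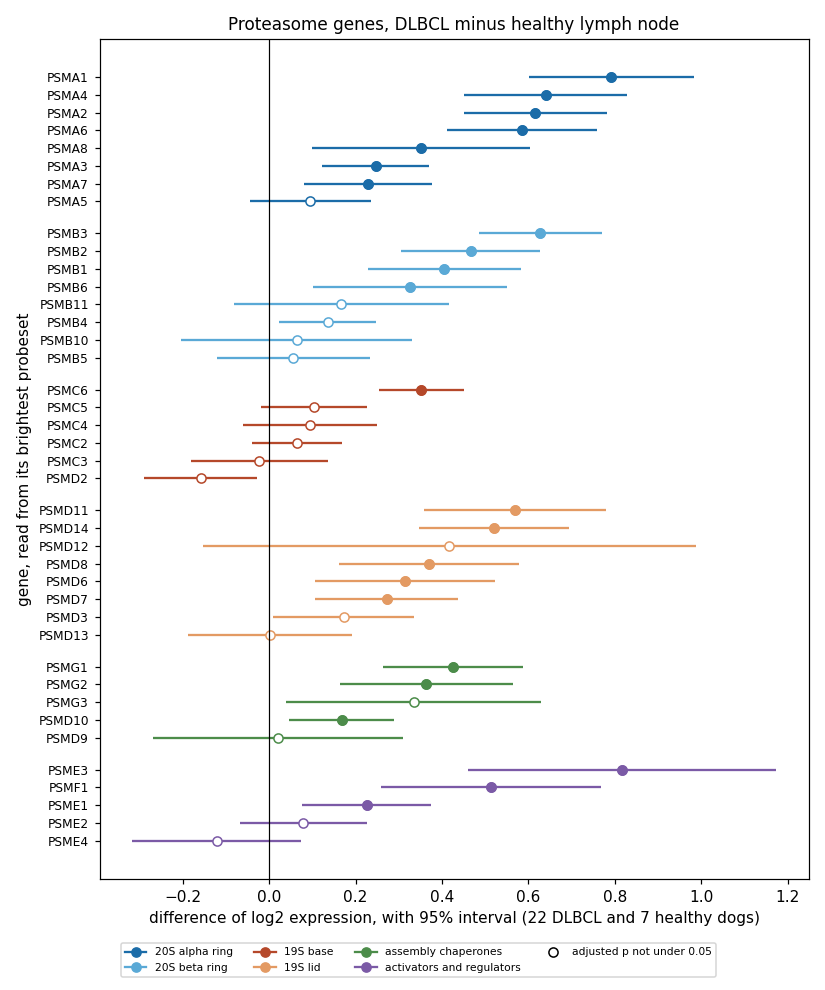
Difference of log2 expression between 22 DLBCL and 7 healthy dogs for 40 proteasome genes, grouped by subcomplex, with 95% intervals from limma; filled points passed an adjusted p of 0.05. Points lie right of 0 for 37 genes, 7 of 8 alpha ring points are filled, and 1 of 6 base points is.

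RIN all but separates healthy from DLBCL dogs, so RNA integrity and disease can hardly be told apart. With RIN as a covariate 1 of the 40 genes, PSMB3, stayed called (log2 difference 0.63, SE 0.15, adjusted p = 0.029), while the median difference of the 40 genes was 0.26 and the share of all probesets called higher dropped from 19% to 0.579%. Healthy dog 1, with the mean RIN of 9.15, is the healthy dog within the DLBCL range of RIN. Over all 40 genes it lay below the DLBCL median in 38, below every DLBCL dog in 15 and above the mean of the other healthy dogs in 10. How often the same held over all named genes was not counted, so these counts have no baseline. The dog was also unlike the other healthy dogs, and lay below all of them in 16 of the 40 genes. Among healthy dogs it had the lowest mean of proliferation genes (8.60) and the highest of macrophage (11.84) and stroma genes (12.00). This dog is 1 of the 7 that the comparison itself used.

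Of the alpha subunits, PSMA1, PSMA2, PSMA4 and PSMA6 had the largest differences. PSMA1 was at 10.07, 10.37 and 10.58 (lowest, median and highest, log2 expression) in healthy nodes, at 10.91, 11.23 and 11.56 in naive and at 10.47, 11.10 and 11.38 in relapsed DLBCL. All naive dogs lay above all healthy dogs, and 1 relapsed dog overlapped them. The log2 difference between DLBCL and healthy nodes was 0.79 (SE 0.09, adjusted p = 2.7e-07), a fold change of 1.73.
PSMA4 was at 12.52, 12.92 and 13.08 in healthy, 13.23, 13.49 and 13.90 in naive and 13.15, 13.56 and 13.94 in relapsed nodes. The groups did not overlap, and the difference was 0.64 (SE 0.09, adjusted p = 5.2e-06), with 0.52 in its dimmer probeset. PSMA2 was at 11.99, 12.20 and 12.40 in healthy, 12.64, 12.85 and 13.20 in naive and 12.44, 12.69 and 13.09 in relapsed nodes, again without overlap (difference 0.62, SE 0.08, adjusted p = 1.2e-06), although its dimmer probeset did not pass at 0.21.
In PSMA6 the healthy values were 11.18, 11.52 and 11.64, the naive ones 11.81, 12.15 and 12.43 and the relapsed ones 11.63, 11.96 and 12.28. One DLBCL dog fell within the healthy range, and the difference was 0.59 (SE 0.08, adjusted p = 5.5e-06).
PSMA3 rose by 0.25 and PSMA7 by 0.23, with 19 and 17 of 22 DLBCL dogs above all healthy dogs. PSMA5 did not pass in its brightest probeset (0.10, adjusted p = 0.30). PSMA8, an alpha subunit of the testis, passed at 0.35 but lay at 3.98 to 5.18 over all DLBCL dogs, close to the 17 tag controls, probesets of artificial sequence, whose means were 2.79 to 4.56. Its call was lost in 5 of 18 alternatives.

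In the beta ring 4 genes rose and 4 did not pass, and PSMB5 was among the latter in its brightest probeset. PSMB3, a structural subunit, had the lowest adjusted p of all members. Its level was 11.63, 11.99 and 12.17 in healthy, 12.37, 12.63 and 12.80 in naive and 12.19, 12.54 and 12.81 in relapsed nodes. No DLBCL dog overlapped a healthy one, the difference was 0.63 (SE 0.07, adjusted p = 9.8e-08), and the other probesets of the gene gave 0.57 and 0.81.
PSMB2, another structural subunit, was at 12.03, 12.18 and 12.31 in healthy, 12.44, 12.66 and 12.98 in naive and 12.26, 12.57 and 12.89 in relapsed nodes, a difference of 0.47 (SE 0.08, adjusted p = 4e-05). PSMB1 had 12.43, 12.52 and 12.64 in healthy, 12.71, 12.96 and 13.22 in naive and 12.39, 12.82 and 13.26 in relapsed nodes, with a difference of 0.41 (SE 0.09, adjusted p = 0.0006). In both genes 21 of 22 DLBCL dogs stood above all healthy dogs.
PSMB6, which carries the caspase-like site, was at 11.42, 11.51 and 11.60 in healthy, 11.35, 11.89 and 12.29 in naive and 11.35, 11.67 and 12.30 in relapsed nodes. DLBCL dogs spread on both sides of the healthy range, with 16 of 22 above it, and the difference was 0.33 (SE 0.11, adjusted p = 0.022).
PSMB5, with the chymotrypsin-like site, was at 12.37, 12.53 and 12.76 in healthy, 12.02, 12.64 and 12.87 in naive and 12.25, 12.46 and 12.66 in relapsed nodes. The groups overlapped (4 of 22 DLBCL dogs exceeded every healthy dog), and the difference of 0.06 (95% interval −0.12 to 0.23) did not pass (adjusted p = 0.66). A dimmer probeset of PSMB5 was called at 0.82, and the mean of its probesets was called higher in all DLBCL (0.31, adjusted p = 0.016) and in naive DLBCL (0.35, adjusted p = 0.0085).
PSMB10, which takes the place of PSMB7 in the immunoproteasome, was at 11.79, 11.97 and 12.18 in healthy, 11.37, 12.12 and 12.72 in naive and 11.50, 12.04 and 12.43 in relapsed nodes. Tumours lay both above and below the healthy dogs, and the difference of 0.06 (95% interval −0.20 to 0.33) did not pass. Nor did the other immunoproteasome subunits pass. PSMB8 was at 13.42, 13.54 and 13.64 in healthy and 13.01, 13.48 and 13.94 in DLBCL dogs (difference −0.06, adjusted p = 0.63), and PSMB9 at 12.53, 13.42 and 13.72 in healthy and 10.31, 13.41 and 14.01 in DLBCL dogs (difference −0.02, adjusted p = 0.96). PSMB4 missed the threshold at 0.14 (adjusted p = 0.057), and PSMB11, the beta subunit of the thymus, was near background in every group.

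In the base of the 19S cap the brightest probesets of the ATPase genes lay close to the healthy level, with PSMC6 as the exception. Dimmer probesets were called for PSMC4, at 0.61 and −0.61, and for PSMC3, at −0.65. PSMC6 was at 11.36, 11.53 and 11.63 in healthy, 11.72, 11.85 and 12.07 in naive and 11.75, 11.90 and 11.92 in relapsed nodes. All 22 DLBCL dogs stood above all 7 healthy dogs, and the difference was 0.35 (SE 0.05, adjusted p = 2.4e-06). A dimmer probeset of PSMC6 went the other way, however, at −0.47 (adjusted p = 0.0058), and the mean of both probesets gave −0.06.
PSMD2, a scaffold of the base, was at 12.28, 12.52 and 12.70 in healthy, 12.14, 12.35 and 12.71 in naive and 12.16, 12.33 and 12.46 in relapsed nodes. Its difference of −0.16 was the lowest of the members and just missed the threshold (adjusted p = 0.058), which it passed after quantile normalization and without healthy dog 1. The mean of its probesets turned the sign, to 0.11 (adjusted p = 0.13) in all DLBCL and to 0.14 in naive DLBCL, where it was called higher (adjusted p = 0.045).
PSMC5 was at 12.08, 12.18 and 12.36 in healthy, 12.09, 12.33 and 12.48 in naive and 12.14, 12.26 and 12.59 in relapsed nodes, and PSMC4 at 11.89, 12.18 and 12.32, at 11.94, 12.31 and 12.71 and at 11.98, 12.22 and 12.45. The groups overlapped in both, with 10 and 9 tumours above the healthy range, and their differences of 0.10 and 0.09 did not pass, nor did PSMC2 at 0.06 and PSMC3 at −0.02. Levels of PSMC3 were 12.54 to 12.70 in healthy and 12.12 to 12.90 in DLBCL nodes, so that tumours spread widely around a narrow healthy range.

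**Figure D2:**
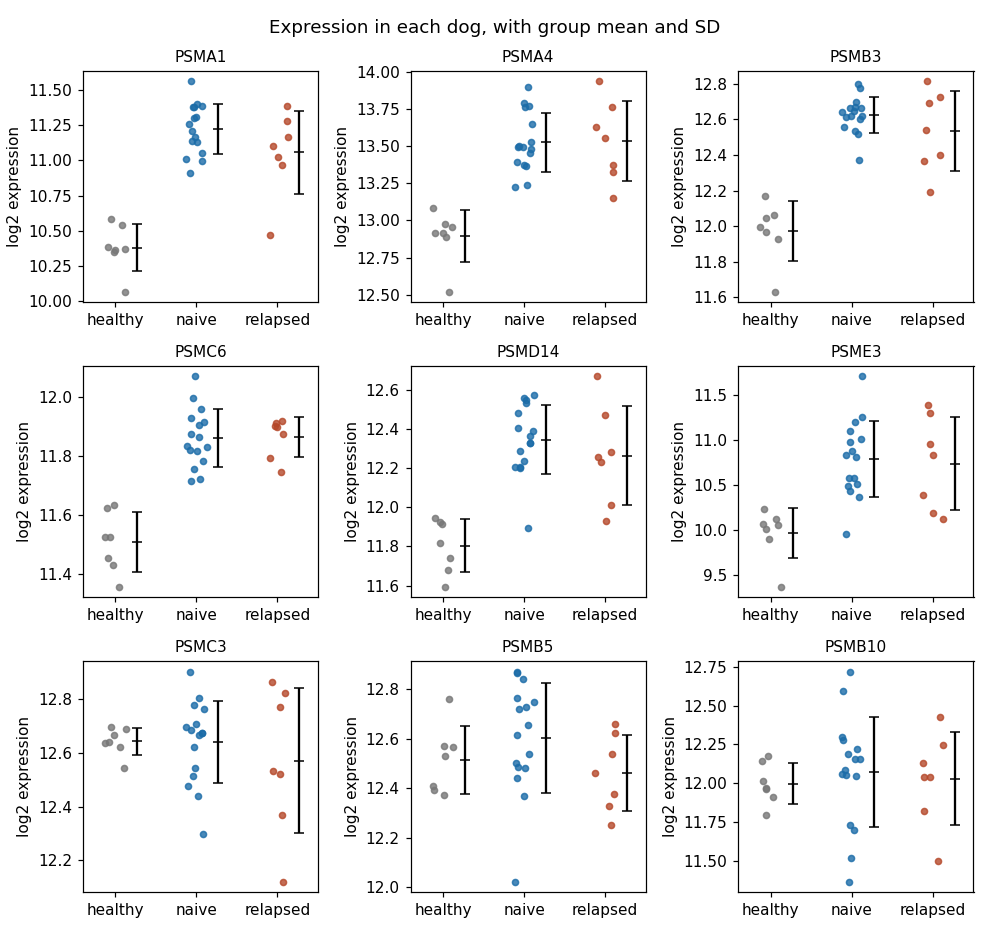
Log2 expression of 9 proteasome genes in healthy, naive and relapsed nodes, 1 point per dog (the dog with samples 11 and 12 in both DLBCL groups), with the mean and SD of each group in black; each panel has its own scale, which does not start at 0. In PSMA4, PSMB3 and PSMC6 no DLBCL point reaches the healthy points, while in PSMC3, PSMB5 and PSMB10 the groups overlap.

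Lid genes rose in 5 of 8 cases, led by PSMD11 and PSMD14. PSMD11, which stabilises the joined core and cap, was at 9.34, 9.56 and 9.68 in healthy, 9.82, 10.04 and 10.78 in naive and 9.66, 10.04 and 10.41 in relapsed nodes. A single DLBCL dog reached the healthy range, and the difference was 0.57 (SE 0.10, adjusted p = 9.3e-05), while the dimmer probeset did not pass at −0.06.
PSMD14, the deubiquitinase of the lid, was at 11.59, 11.82 and 11.95 in healthy, 11.90, 12.35 and 12.57 in naive and 11.93, 12.26 and 12.67 in relapsed nodes. Of 22 DLBCL dogs 20 stood above all healthy dogs, with a difference of 0.52 (SE 0.08, adjusted p = 2.7e-05) and 0.89 in the dimmer probeset.
PSMD8 had 11.90, 11.95 and 12.21 in healthy, 11.89, 12.36 and 12.88 in naive and 12.00, 12.31 and 12.85 in relapsed nodes, a difference of 0.37 (SE 0.10, adjusted p = 0.0058). PSMD6 rose by 0.31 and PSMD7, the inactive partner of PSMD14, by 0.27. PSMD12 was the most variable lid gene, at 8.06, 8.33 and 9.42 in healthy, 8.16, 8.98 and 10.72 in naive and 7.97, 8.41 and 9.81 in relapsed nodes, and its difference of 0.42 (SE 0.28) did not pass. PSMD3 at 0.17 missed the threshold in its brightest probeset, although its 3 dimmer ones were called at 0.50, 0.63 and 0.81 and the mean of its probesets at 0.53, and PSMD13 was at 0.00 (95% interval −0.19 to 0.19).

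Assembly factors, which build the rings and then leave, were higher in 3 of 5 cases. PSMG1 and PSMG2 form a pair that aligns the alpha ring. PSMG1 was at 11.60, 11.70 and 11.92 in healthy, 11.80, 12.18 and 12.51 in naive and 11.62, 12.18 and 12.39 in relapsed nodes (difference 0.43, SE 0.08, adjusted p = 0.00013). PSMG2 was at 12.01, 12.24 and 12.55 in healthy, 12.16, 12.71 and 13.07 in naive and 12.27, 12.50 and 12.96 in relapsed nodes (difference 0.36, SE 0.10, adjusted p = 0.0048). Some tumours overlapped the healthy dogs in each, 2 in PSMG1 and 8 in PSMG2. PSMD10 (gankyrin), a chaperone of the base, was at 11.25, 11.47 and 11.68 in healthy, 11.52, 11.68 and 11.82 in naive and 11.42, 11.60 and 11.69 in relapsed nodes. It passed at 0.17 (adjusted p = 0.029), a call lost in 6 of 19 alternatives, although both of its dimmer probesets were called at 0.53 and 0.29. PSMG3 was at 9.67, 9.80 and 9.98 in healthy, 9.33, 10.15 and 10.81 in naive and 9.62, 9.98 and 10.49 in relapsed nodes, and its difference of 0.33 (adjusted p = 0.076) did not pass. PSMD9, another chaperone of the base, differed by 0.02.

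Among the caps that replace the 19S cap, 1 nuclear activator rose and the other did not pass. PSME3, which forms the nuclear activator, had the largest difference of all members. It was at 9.37, 10.06 and 10.23 in healthy, 9.95, 10.82 and 11.70 in naive and 10.12, 10.83 and 11.38 in relapsed nodes. Most tumours, 19 of 22, stood above all healthy dogs, and the difference was 0.82 (SE 0.17, adjusted p = 0.0006), a fold change of 1.76.
PSME1 and PSME2 form the activator that interferon induces. PSME1 was at 13.83, 13.93 and 13.99 in healthy, 13.80, 14.15 and 14.36 in naive and 13.76, 14.20 and 14.38 in relapsed nodes, and rose by 0.23 (SE 0.07, adjusted p = 0.017), a call lost in the mean of its probesets. PSME2 was at 13.46, 13.74 and 13.77 in healthy, 13.35, 13.80 and 14.06 in naive and 13.63, 13.74 and 13.98 in relapsed nodes, and its difference of 0.08 (95% interval −0.07 to 0.23) did not pass.
PSMF1, an inhibitor of the core, was at 8.30, 8.73 and 9.10 in healthy, 8.61, 9.28 and 9.89 in naive and 8.74, 9.29 and 9.59 in relapsed nodes, with a difference of 0.51 (SE 0.12, adjusted p = 0.0021). PSME4, a further nuclear activator, was at 13.23, 13.32 and 13.47 in healthy, 12.77, 13.25 and 13.62 in naive and 12.59, 13.21 and 13.48 in relapsed nodes, and its difference of −0.12 did not pass.

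Every DLBCL dog stood above every healthy dog in 4 of the 40 genes, PSMA2, PSMA4, PSMB3 and PSMC6, and below in 0. Over all genes this held for 0.549% above and 1.18% below.

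Probesets of the same gene did not always move alike. Of the 81 probesets 43 were higher and 3 lower, while of all probesets 19% were higher and 13.6% lower. Several probesets existed for 26 genes, and in 2 of these, PSMC4 and PSMC6, probesets were called in both directions. The brightest probeset of PSMC4 did not pass, and its 2 dimmer ones were called at 0.61 and −0.61. The third lower probeset was a dim one of PSMC3, at −0.65. In PSMA5, PSMB5, PSMD2, PSMD3 and PSMD9 the brightest probeset did not pass and at least 1 dimmer one was called higher, at 0.44 for PSMA5, 0.53 for PSMD2 and 0.43 for PSMD9. Where in the transcripts these probesets lie was not analysed here.

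**Figure D3:**
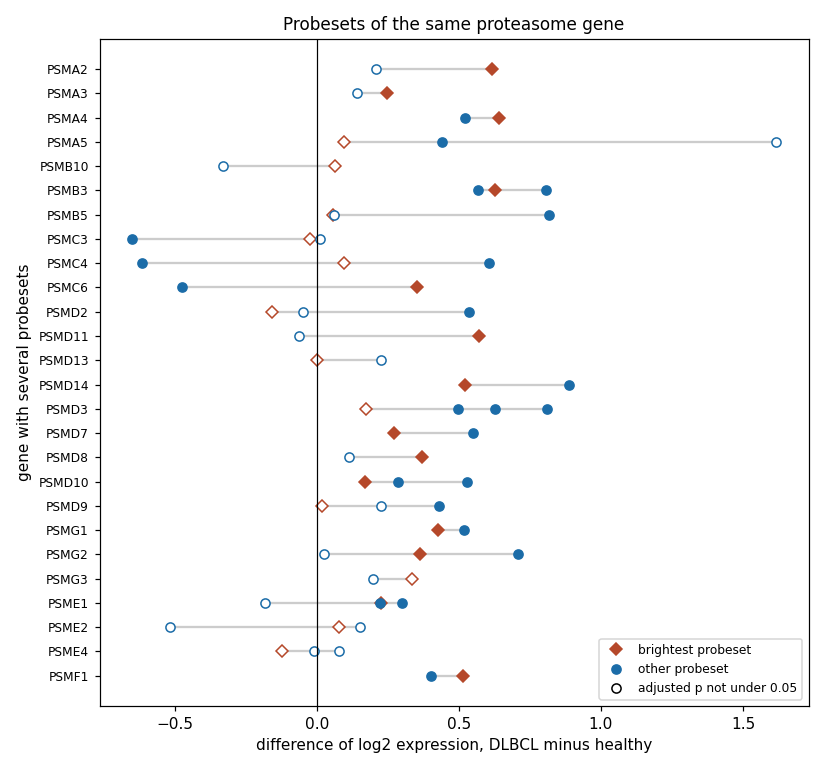
Difference of log2 expression between DLBCL and healthy dogs for each probeset of the 26 genes with several probesets; diamonds mark the brightest probeset of a gene, circles the others, and filled marks passed an adjusted p of 0.05. PSMC4 and PSMC6 have filled marks on both sides of 0.

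Naive and relapsed DLBCL were each set against the same 7 healthy dogs, so these contrasts are not independent. In naive DLBCL 24 genes were higher and 0 lower, where 19.9% of all genes were higher and 15.1% lower, and the median difference of the members was 0.30. They were the 23 genes named for all DLBCL and PSMB4, at 0.15 (adjusted p = 0.042). In relapsed DLBCL 12 were higher and 0 lower, where 10.8% of all genes were higher and 8.96% lower, and the median was 0.21. These 12 were PSMA1, PSMA2, PSMA4, PSMA6, PSMB1, PSMB2, PSMB3, PSMC6, PSMD11, PSMD14, PSME3 and PSMG1. Without sample 18 the relapsed count was 18, and without samples 5 and 18 it was 20. The share of all probesets called higher in relapsed DLBCL rose as well, from 10.2% to 12.4% and 13.4%.

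Between relapsed and naive DLBCL no proteasome gene differed past the threshold. The count was 0 of 40 in either direction, also at an unadjusted p under 0.05, and over all genes it was 0% higher and 0% lower after adjustment, with 5.51% of genes at an unadjusted p under 0.05. The median difference, relapsed minus naive, was −0.07, with 4 of 40 genes above 0, and over all genes it was −0.01. Without sample 18 the median was −0.03. The interval of PSMA4 ran from −0.19 to 0.21, that of PSMB5 from −0.32 to 0.04, and that of PSMA1 (difference −0.17) from −0.36 to 0.03. PSMD12 had the largest difference, −0.39, and the widest interval, −0.98 to 0.20, whereas PSMC6 differed by 0.00 (−0.10 to 0.11). In the dog sampled at both stages, 33 of the 40 genes were lower in the relapsed sample and 7 higher, with a median of −0.11 and a range of −0.62 to 0.34. This is 1 dog, and no test was made.

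**Figure D4:**
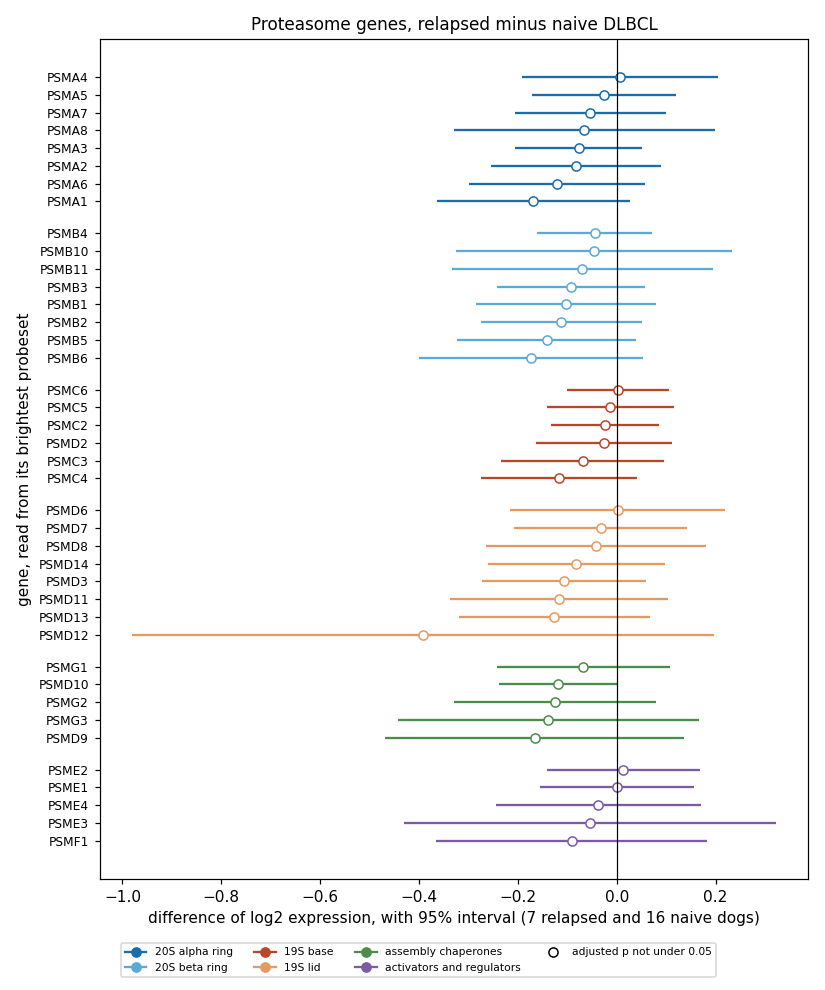
Difference of log2 expression between 7 relapsed and 16 naive DLBCL samples for 40 proteasome genes, with 95% intervals from limma. Every interval includes 0, and 36 of the points lie left of it.

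Tumours differed from each other in how far the genes as a whole were raised. Leaving out PSMA8 and PSMB11, which were near background, the mean difference of the other 38 genes from their healthy means was −0.08 to 0.07 in the 7 healthy dogs. In the 16 naive samples it was 0.11, 0.32 and 0.52 (lowest, median and highest) and in the 7 relapsed samples −0.04, 0.29 and 0.45. The relapsed sample 18 was the one tumour within the healthy range, with 5 of the 38 genes above all healthy dogs, and sample 9, also relapsed, came next at 0.09. Sample 21, a naive tumour, was highest at 0.52, with 32 of the 38 genes above all healthy dogs. The mean level of the proliferation list was lowest in samples 18 and 9 (9.51 and 9.98) and highest in sample 21 (11.23). Sample 20, the lowest naive tumour at 0.11, had rank 10 of 23 by that list, and sample 15 had rank 20 by it but rank 8 by the members. These tumours were extreme in other lists too. Stroma genes were highest in sample 18 (rank 23) and lowest in sample 21 (rank 1), where plasma cell genes were highest (rank 23). In sample 20 B-cell genes were highest (rank 23) and T-cell genes lowest (rank 1). What part any of these lists has in the level of the members was not tested.

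Across the 22 DLBCL dogs most of these genes varied together. As a description over genes of the same arrays, the 703 pairs among 38 genes had a median correlation of 0.51, and 631 were above 0. Without sample 18 the median was 0.43. Medians within the beta ring (0.67) and the alpha ring (0.63) stood above those of the lid (0.55), the base (0.54) and the assembly factors (0.24). PSME3 (median r with the other members 0.70) and PSMA1 (0.69) followed the rest most closely. Their median r with all genes was 0.02 and 0.01. That value was near 0 for every member, from −0.03 for PSME4 to 0.05 for PSMB5, so it is no baseline for these correlations. Pairs of other genes were not set beside them. PSMA2 and PSMB2 were the most alike pair (r = 0.91). PSMD10 and PSMD12 hardly followed the others (0.00 and 0.07), and PSME4 ran against them (−0.58), most of all against PSMD8 (r = −0.82). That pattern of PSME4 was seen in its brightest probeset, while the dimmer ones had medians of 0.26 and 0.09.

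Of the relations between single genes, 13 were computed over the 22 DLBCL dogs, with two-sided permutation p-values adjusted over the 13. Each test asks whether r differs from 0. Since pairs of members had a median r of 0.51, it cannot show that 2 members are closer to each other than to the rest. PSMB10 followed PSMB8, also of the immunoproteasome (Pearson r = 0.83, p = 1e-05, adjusted p = 6.5e-05, Spearman rho = 0.77, p = 8e-05, adjusted p = 0.00048), where 1e-05 is the smallest p that 100000 permutations can give. Without the 2 dogs farthest from the median of PSMB10 r was 0.72, and within the first and second array day it was 0.96 (n = 8) and 0.82 (n = 7). Dogs of a further array day and dogs without a known day are in neither of these values, here and below. With PSMB9 no relation was shown for PSMB10 (r = 0.14, permutation p = 0.52, adjusted p = 0.56, rho = 0.36, p = 0.098, adjusted p = 0.12), with 0.34 and 0.71 within the array days. PSME1 and PSME2, the partners in one ring, went together (r = 0.80, permutation p = 1e-05, adjusted p = 6.5e-05, rho = 0.77, p = 5e-05, adjusted p = 0.00048), with 0.78 without the 2 farthest dogs and 0.86 and 0.80 within the array days. Of all members, however, PSMB10 was the one most like each of them (r = 0.87 with PSME1 and 0.82 with PSME2). PSME3 also followed PSME2 (r = 0.69, permutation p = 0.00033, adjusted p = 0.00072, rho = 0.73, p = 0.00015, adjusted p = 0.00049), with 0.65 without the 2 farthest and 0.58 and 0.61 within days.

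PSMD14 followed PSMB5 (r = 0.75, permutation p = 0.0001, adjusted p = 0.00033, rho = 0.70, p = 0.00045, adjusted p = 0.0012), with 0.63 without the 2 farthest dogs and 0.94 and 0.82 within days. With TOP2A, a topoisomerase of dividing cells, PSMD14 had r = 0.79 (permutation p = 4e-05, adjusted p = 0.00017, rho = 0.75, p = 0.00011, adjusted p = 0.00048), with 0.75 without the 2 farthest and 0.79 and 0.82 within days. PSME3 and TOP2A had r = 0.71 (permutation p = 0.00024, adjusted p = 0.00062, rho = 0.64, p = 0.0017, adjusted p = 0.0033), with 0.70 without the 2 farthest and 0.65 and 0.73 within days. PSMA5 ran against NFE2L1, the transcription factor that raises proteasome genes when the proteasome falls short (r = −0.55, permutation p = 0.0079, adjusted p = 0.015, rho = −0.64, p = 0.0018, adjusted p = 0.0033), with −0.62 without the 2 farthest and −0.31 and −0.82 within days. For PSMA1 and NFE2L1 no relation was shown (r = −0.25, permutation p = 0.27, adjusted p = 0.32, rho = −0.22, p = 0.32, adjusted p = 0.32), with −0.13 and −0.75 within days.

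PSME2 and TAP1, a peptide transporter, had r = 0.52 (permutation p = 0.014, adjusted p = 0.022, rho = 0.39, p = 0.074, adjusted p = 0.097), which rested on the 2 farthest dogs, samples 15 and 22, since r was 0.23 without them. PSMB5 and PSMB8 (r = 0.42, permutation p = 0.053, adjusted p = 0.076, rho = 0.48, p = 0.026, adjusted p = 0.042) had −0.16 within the first array day and 0.58 within the second. PSMG1 and PSMG2 (r = 0.34, permutation p = 0.13, adjusted p = 0.16, rho = 0.45, p = 0.037, adjusted p = 0.054) and PSMB6 and PSMB9 (r = 0.09, permutation p = 0.71, adjusted p = 0.71, rho = 0.25, p = 0.27, adjusted p = 0.29) did not pass by either measure after adjustment. Within days r was 0.21 and 0.20 for PSMG1 and PSMG2, and −0.003 and 0.69 for PSMB6 and PSMB9. The relations with TOP2A, with TAP1 and of PSMA1 were added after the data were seen, and MKI67 and PSMB7, chosen first, have no probeset named here.

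**Figure D5:**
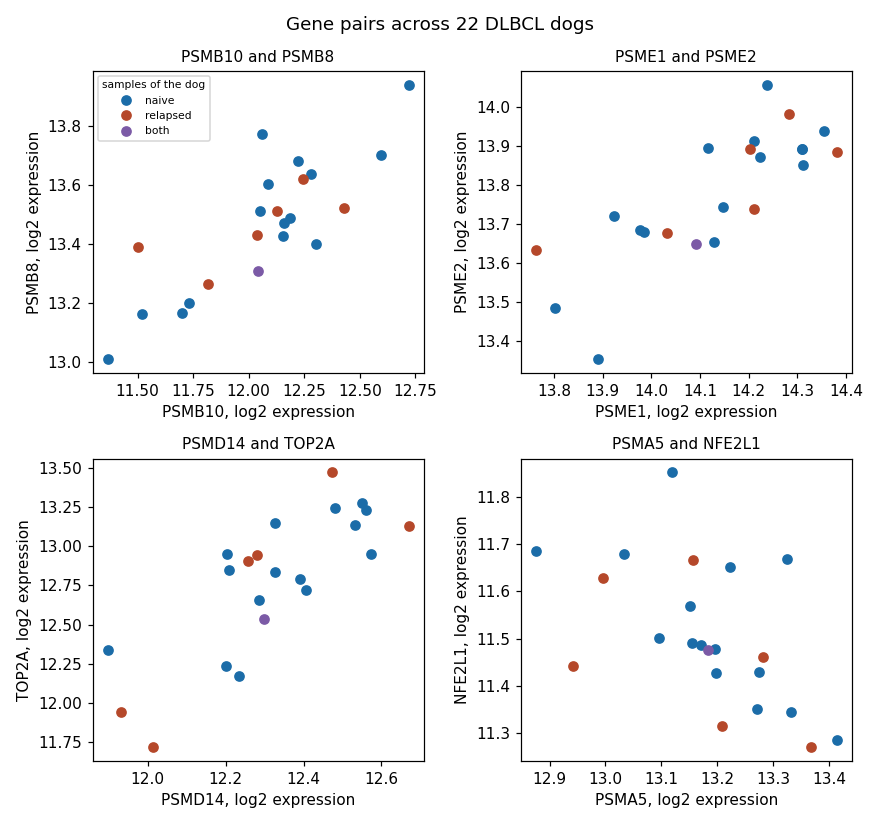
Log2 expression of 4 gene pairs across 22 DLBCL dogs, 1 point per dog, coloured by whether the dog gave a naive sample, a relapsed sample or both; axes do not start at 0. PSMB10 with PSMB8, PSME1 with PSME2 and PSMD14 with TOP2A climb together (r = 0.83, 0.80 and 0.79), and NFE2L1 declines as PSMA5 climbs (r = −0.55).

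Of 37 listed partners that work with the proteasome but were left out by the rule, PSMB8 and PSMB9 among them, 31 were measured. Of these 7 were higher and 2 lower, with a median difference of 0.04, where 19.9% of all genes were higher and 14.9% lower with a median of 0.06, so that the share of partners called higher was near that of all genes. USP14 and UCHL5, deubiquitinases that dock on the cap, were both higher. USP14 was at 11.85, 11.96 and 12.06 in healthy and 12.11, 12.38 and 12.66 in DLBCL dogs, without overlap (difference 0.42, SE 0.06, adjusted p = 6.4e-06). UCHL5 was at 11.61, 11.75 and 11.94 in healthy and 11.74, 12.42 and 12.76 in DLBCL dogs (difference 0.56, SE 0.10, adjusted p = 0.0001). TXNL1, a thioredoxin bound to the cap, was at 12.11, 12.19 and 12.37 in healthy and 12.21, 12.76 and 12.93 in DLBCL dogs and rose by 0.51, leaving 2 DLBCL dogs within the healthy range. UBA6, a ubiquitin-activating enzyme, rose by 0.53 and NPLOC4, a cofactor of the VCP unfoldase, by 0.42, with more overlap (15 and 6 of 22 DLBCL dogs above). The other higher genes were DDI2 at 0.35 and PAAF1 at 0.28. The 2 lower genes were FBXO7, which binds the inhibitor PSMF1, and NFE2L1. FBXO7 was at 12.00, 12.07 and 12.34 in healthy and 11.55, 11.68 and 12.02 in DLBCL dogs (difference −0.41, SE 0.06, adjusted p = 1.5e-05). NFE2L1 was at 11.75, 11.91 and 12.09 in healthy and 11.27, 11.48 and 11.85 in DLBCL dogs (difference −0.39, SE 0.07, adjusted p = 5.5e-05). In both genes 21 of 22 DLBCL dogs lay below all healthy dogs. Between relapsed and naive DLBCL 0 of the 31 were called.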

How the data were processed

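RNA of lymph node samples was amplified and hybridised to Affymetrix Canine arrays. Using the Affymetrix Expression Console, the authors normalised the scans by RMA, and they deposited the log2 expression of every probeset on every array. No versions are given in the sources at hand. RMA gives the probes of all arrays 1 distribution before they are summed into probesets, so a global rise or fall of RNA in a cell would not show. The probeset values were close to 1 distribution but not equal, with array medians of 6.85 to 6.97. The number of arrays limits the precision, and 0 sample columns were left unused.

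Groups came from the labels, and arrays of a case were averaged. Symbols came from the platform annotation (29264 probesets with 1 symbol, 439 with several, 13332 unnamed here), and the probeset with the highest mean stood for its gene. DLBCL and healthy dogs (2 groups), and naive, relapsed and healthy samples (3 groups), were compared by two-sided limma tests (limma 3.58.1, R 4.3.3) with Benjamini-Hochberg adjustment over 43035 probesets. Correlations used 100000 permutations in Python 3.11.15 with numpy 2.4.6, scipy 1.17.1 and pandas 2.3.3, and plots matplotlib 3.10.9. The fit was tested on simulated data. RNA was extracted in batches that could not be assigned to samples here, and array days were known for 18 DLBCL arrays.

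The members, lists and tests were chosen with earlier results of these data known. Values by group are given for up to 4 members of each subcomplex with the largest difference, for PSMB5, PSMB6, PSMB10, PSME1, PSME2, PSME3 and PSMD14, and for up to 5 partners; a few other members are named with their difference alone or, as PSMC3, PSMD13 and the pairs of correlated genes, to show spread or relations. A search of promoters was not made. Besides leaving out dogs, the alternatives took each of the 33 arrays as a sample, treated the dog as a random effect, used the ANOVA of the study's methods or added RIN to the model. They also dropped probesets below the 25th percentile of mean level, applied quantile normalization or median centring again, averaged the probesets of a gene, and blocked on sample number or array day.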

Additional observations from a re-analysis of the deposited data

Results flagged for a closer look

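In 80 groups of 7 dogs (healthy and relapsed, 40 genes each) 8 had a highest or lowest dog set apart from the rest, with a gap to its neighbour, as a share of the group's range, over Dixon's critical value for a group of 7. Chance alone flags about 1 in 20 groups. The 40 genes were read in the same dogs, however, and most varied together across DLBCL dogs. The flags are thus not independent, and their count was not tested against chance. Among relapsed samples, sample 18 was lowest in PSMC2 (gap 0.674 of the range, 12.72 against 12.99 in the next) and in PSMG1 (0.578, 11.62 against 12.06), and sample 4 was lowest in PSME4 (0.639, 12.59 against 13.16). Among healthy dogs, dog 1 was lowest in PSME2 (0.633, 13.46 against 13.66) and in PSME3 (0.623, 9.37 against 9.90). Healthy dog 4 was lowest in PSMA4 (0.659, 12.52 against 12.89) and highest in PSMD6 (0.63, 12.58 against 12.48), and healthy dog 7 was highest in PSMD7 (0.594, 11.72 against 11.54).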

How the results depend on the processing

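The count of 23 genes higher in DLBCL was 1 with RIN as a covariate and 22 to 29 under the other alternatives that kept all dogs. It was 29 with 33 arrays as separate samples and with the ANOVA. There 25.8% and 26% of all probesets were higher, against 19% in the main comparison. The count in naive DLBCL was 2 (PSMA2 and PSMB3) with RIN and 23 to 29 otherwise, and that in relapsed DLBCL 0 with RIN, 19 with 33 arrays as separate samples, 20 without samples 5 and 18, and 11 to 18 otherwise. For relapsed DLBCL the share of all probesets called higher was 10.2% in the main comparison and 14.5% with 33 arrays. Leaving out each healthy dog gave 21 to 23 genes higher in DLBCL, 23 to 24 in naive and 11 to 13 in relapsed. The count of 0 lower was 1 (PSMD2) in DLBCL and in naive DLBCL after quantile normalization and without healthy dog 1, so leaving out a healthy dog gave 0 to 1 lower in each. Between relapsed and naive DLBCL 0 genes were called under each alternative run for that contrast, including the array day as a block; it was not run with 33 arrays, the dog as random effect, RIN, the ANOVA or the sample number. Of the 23 called genes PSMC6 alone turned, to −0.0611 in the mean of its probesets. Among genes not called, 8 changed sign in at least 1 alternative: PSMD12 (−0.48), PSMB10 (−0.06) and PSMC2 (−0.06) with RIN, PSMD2 (0.11), PSME2 (−0.10) and PSMB10 (−0.13) in the mean of probesets, and PSMC3, PSMD9 and PSMD13 elsewhere. PSMB3 stayed called in all 19 alternatives, 18 genes lost their call with RIN alone, and PSMA8, PSMD10 and PSME1 also lost it elsewhere. The cause of these changes was not tested. With the sample number as a replicate block 22 genes were higher in DLBCL; the numbers do not pair dogs, since deviations of the 9 shared numbers correlated at −0.14 to 0.13. Leaving out samples 5 or 18 singly was chosen after seeing the data.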

Other observations

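PSMC3IP, a recombination factor that matches the proteasome genes by name alone, was at 8.87, 9.52 and 9.70 (lowest, median and highest log2 expression) in healthy, 9.62, 9.91 and 10.40 in naive and 9.64, 9.82 and 10.38 in relapsed nodes. Of 22 DLBCL dogs 20 stood above all healthy dogs, and the gene rose by 0.48 (limma, SE 0.10, adjusted p = 0.00042), where 19.9% of all genes were higher. PSME3IP1, the other match by name alone, differed by 0.08 and did not pass (limma, adjusted p = 0.60). Its difference between relapsed and naive DLBCL, −0.31, did not pass either (limma, adjusted p = 0.88).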
